A study of Mus musculus with 4 samples.

Results

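The 10 genes described here are the D-type cyclins Ccnd1, Ccnd2 and Ccnd3, the E-type cyclins Ccne1 and Ccne2, the E2F transcription factors E2f1, E2f2, E2f7 and E2f8, and Myc. They were taken by gene symbol from an expression table of 23970 symbols, and all 10 were found, each in 1 row. The RNA came from epidermal keratinocytes of newborn mice, grown at passage 0 in low-calcium medium on growth-arrested J2-3T3 cells, a mouse fibroblast feeder line that was removed before lysis. There were 2 control libraries, with no genotype stated beyond that label, and 2 Ovol2-deficient libraries. How Ovol2, which encodes a zinc-finger regulator of epithelial cells, was made deficient, and in which cells, is not stated in the labels, nor is it stated whether the libraries of a group came from different animals. The p-values below therefore measure the spread between these libraries only.

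Entry into S phase is controlled by a circuit in which these genes hold different places. Growth factor signals raise the D cyclins and Myc, and D cyclins bind Cdk4 or Cdk6 and begin to phosphorylate the retinoblastoma (Rb) protein. Rb then releases the activating factors E2F1 and E2F2, which switch on the E cyclins, the genes of DNA replication and the repressing factors E2F7 and E2F8. In the basal layer of the epidermis this circuit separates cells that keep dividing from cells that leave the cycle as they differentiate.

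Values are FPKM (fragments per kilobase, scaled to each library's mapped fragments), a unit scaled to transcript length, so levels can be compared between genes. Depth, estimated from the size of single-read steps in the authors' deposited table on the assumption that normalized totals are equal, was about 12400000 to 14800000 counted reads a library. The FPKM of Ovol2 was 2.68 and 2.14 in control libraries and 1.45 and 0.941 in deficient libraries, without passing the test (adjusted p = 0.129 in limma, with a log2 difference of -0.64). At this level the pseudocount of 1, added before logs were taken, understates a change. With a pseudocount of 0.1 the log2 difference was -0.97. The authors' deposited table gave -0.36, with an adjusted p of 0.441. That estimate too lies nearer to 0 than the FPKM, where the deficient mean was 49.7% of the control mean. How it was made is not stated, so the 2 estimates are on unlike scales. All 8 keratinocyte markers checked were present, with a summed FPKM of 5963 to 6100 in control libraries and 4748 to 5480 in deficient libraries. In limma 0 of the 8 passed, and 5 were lower at an unadjusted p under 0.05 (7.94% of all tested genes were). In each deficient library 7 were lower than in either control (24% of all). The authors' deposited table called 3 lower, Itga6, Col17a1 and Cdh1 (2.1% of its genes). Of 17 fibroblast markers 14 were tested in limma and 3 rose (Loxl1, Pcolce and Fbln2), where 0.837% of all tested genes did. All 14 were higher in each deficient library than in either control (24.1% of all tested genes were), 13 were higher at an unadjusted p under 0.05 (9.49% of all), and the authors' deposited table called 9 higher (2.33% of its genes). The summed FPKM of the 17 was 443.5 to 451.3 in control libraries and 608.4 to 633.2 in deficient libraries. The 8 melanocyte markers summed to 62.6 to 68.1 in control libraries and 84.9 to 91.4 in deficient ones. Of these 6 were tested in limma and 0 passed, with 4 higher at an unadjusted p under 0.05. All 6 were higher in each deficient library than in either control, and the authors' deposited table called 1 higher, Dct. Among other markers, Cd207 of Langerhans cells and Cdh5 of endothelium were listed at 0 in every library. Feeder and keratinocyte reads cannot be separated by species here, because both are mouse.

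The D cyclins and Myc stood far above the E cyclins and E2F genes in every library. In FPKM, the order of the control means was Ccnd2, Ccnd1, Myc, Ccnd3, Ccne1, E2f1, Ccne2, E2f8, E2f7 and E2f2. The control values of Ccnd1 and Myc overlapped, as did those of E2f1 with Ccne2 and of Ccne2 with E2f8, so these neighbours in the order were not separated by their spread. The deficient libraries had the same order of means, with only Ccne1 and E2f1 overlapping. Ccnd2 lay at the 97.0 to 97.4 percentile of all tested genes and E2f2 at the 5.62 to 16.7 percentile. The plot of levels by library shows a gap between Ccnd3 and Ccne1, whose control means differed 5.03-fold.

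**Figure D1:**
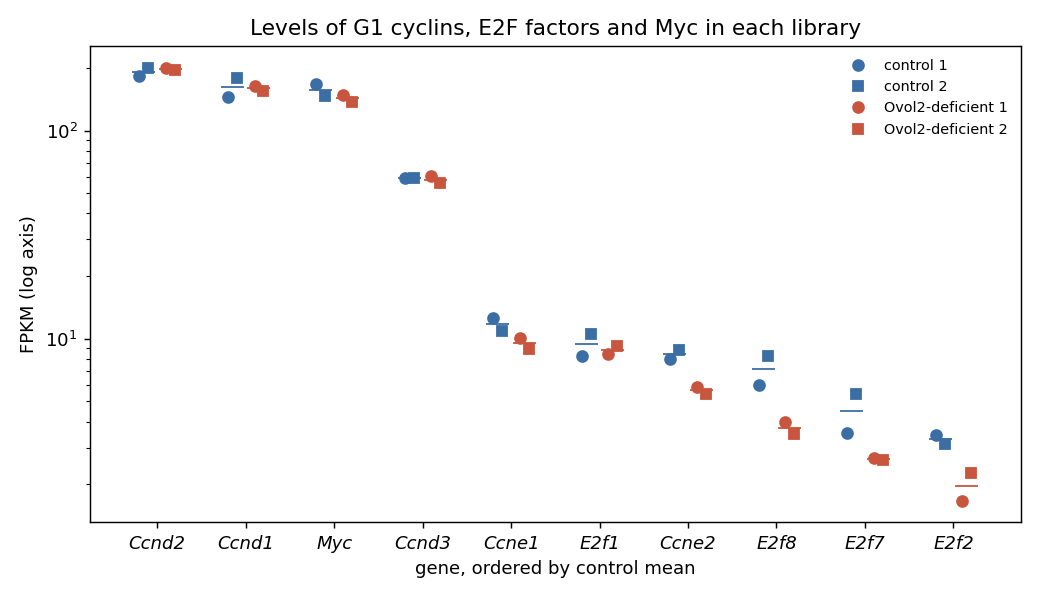
FPKM of each gene (log axis) in the 2 control libraries (blue) and the 2 Ovol2-deficient libraries (red), with circles for library 1, squares for library 2 and a line at each group's mean. The groups are separated for Ccne1, Ccne2, E2f2, E2f7 and E2f8, with both deficient values lower, and overlap for the D cyclins, E2f1 and Myc.

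None of the 10 genes passed the test over all genes. In limma on log2(FPKM + 1), 0 of 10 had an adjusted p under 0.05, where 1.35% of the 11350 tested genes did. At an unadjusted p under 0.05, 5 of 10 were lower (Ccne1, Ccne2, E2f2, E2f7 and E2f8) and 0 higher, against 7.94% of all genes lower. The same 5 lay lower in each deficient library than in either control, a separation in that direction shown by 24% of all tested genes. The log2 fold change was below 0 for 9 of 10, with a median of -0.21, while that of all tested genes was -0.0014. The authors' deposited table, made from the same libraries, called 3 of the 10 lower, E2f8, Ccne2 and E2f7, with 2.1% of its genes called lower and none of the 10 called higher. With 2 libraries a group, an exact permutation test cannot give a two-sided p below 0.333, so every call rests on the model.

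Among the D cyclins, which carry growth factor signals to Cdk4 and Cdk6, all 3 overlapped between the groups. Ccnd1 (ENSMUSG00000070348.5, GENCODE M21, mm10, chromosome 7, 144929931 to 144939925, minus strand) had FPKM of 145.7 and 178.6 in control libraries and 164.4 and 155.2 in deficient libraries. Both deficient values lay between the controls. The log2 fold change was -0.014 (95% interval -0.29 to 0.26, adjusted p = 0.970 in limma), and its sign depended on the library left out, at -0.16 without control 1 and 0.13 without control 2. Ccnd2 (ENSMUSG00000000184.12, chromosome 6, 127125162 to 127152193, minus strand), the most abundant of the 10, had 184.0 and 200.5 in control libraries and 201.0 and 196.2 in deficient libraries. Only the first control stood apart, below the other libraries (log2 fold change 0.05, 95% interval -0.17 to 0.27, adjusted p = 0.857). Ccnd3 (ENSMUSG00000034165.16, chromosome 17, 47505051 to 47599691, plus strand) had 59.5 and 59.1 in control libraries and 60.2 and 55.9 in deficient libraries, which lay on either side of the controls. A log2 fold change of -0.03 was fitted (95% interval -0.24 to 0.18, adjusted p = 0.904).

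The share of each D cyclin also overlapped between the groups. Ccnd2 was 46.5% ± 1.07 of their summed FPKM in control libraries and 47.7% ± 0.679 in deficient libraries (SD, n = 2 per group). Ccnd1 was 39.1% ± 2.35 and 38.4% ± 0.378, and Ccnd3 14.4% ± 1.27 and 13.9% ± 0.301. The sum itself was 389.2 and 438.2 in control libraries and 425.6 and 407.3 in deficient libraries. The intervals above reach no further than -0.29 and 0.27 on the log2 scale for any of the 3, which does not show that the levels were equal.

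Myc (ENSMUSG00000022346.15, chromosome 15, 61985391 to 61990374, plus strand), a transcription factor that drives growth and ribosome synthesis, had FPKM of 167.2 and 146.1 in the controls. The deficient libraries had 148.6 and 137.7, the first of them inside the range of the controls and the other below it. Group means of 156.7 ± 14.9 and 143.1 ± 7.70 (SD, n = 2 per group) gave a log2 fold change of -0.13 (95% interval -0.37 to 0.12, adjusted p = 0.605). It ranged from -0.22 to -0.03 with 1 library left out.

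The E cyclins bind Cdk2 at the G1/S transition and are themselves E2F targets. Ccne2 (ENSMUSG00000028212.16, chromosome 4, 11191351 to 11204779, plus strand) had FPKM of 7.95 and 8.88 in control libraries and 5.85 and 5.44 in deficient libraries. The groups did not overlap, and the deficient mean was 67.1% of the control mean. Its log2 fold change was -0.50 (SE 0.11, 95% interval -0.77 to -0.23), which did not pass in limma (adjusted p = 0.0809, and 0.0601 to 0.376 over the alternatives). The value in the authors' deposited table was -0.56, with an adjusted p of 0.0149. Ccne1 (ENSMUSG00000002068.16, chromosome 7, 38097984 to 38107534, minus strand) had 12.6 and 10.9 in control libraries and 10.1 and 8.88 in deficient libraries. These did not overlap either, but the lower control and the higher deficient library were close (log2 fold change -0.29, SE 0.12, with an adjusted p of 0.277 in limma but 0.477 in the authors' deposited table).

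Set against the D cyclins, the summed E cyclins were lower in both deficient libraries. Each E cyclin was already lower there on its own, as given above, so the comparison is not separate evidence on them. The ratio of summed D to summed E cyclin FPKM was 18.9 and 22.1 in control libraries and 26.7 and 28.4 in deficient libraries, with no overlap between the groups (two-sided exact permutation p = 0.333, the smallest that 2 against 2 can give). Ccne2 made up 38.6% and 44.8% of E cyclin FPKM in control libraries and 36.7% and 38.0% in deficient libraries. The groups were separated there by less than 1 point.

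E2f1, E2f2, E2f7 and E2f8 encode activating and repressing members of one family, and E2F genes are themselves known targets of E2F factors, so their start-site windows are shown before their values. RefSeq windows (build GRCm38.p6, which is the mm10 build the labels name) were given for 6 of the 10 genes, Ccnd3, Ccne1, E2f1, E2f2, E2f7 and E2f8, and not for Ccnd1, Ccnd2, Ccne2 and Myc. Each window runs from 250 bases before an annotated start to 50 after it and is printed 5′ to 3′ on the strand of the gene. Capitals mark matches, on either strand, to an E2F element (TTTCCCGC, TTTCGCGC, TTTGCCGC or TTTGGCGC) or to a CHR element (TTTGAA or TTCGAA), the cell-cycle homology region of genes expressed late in the cycle.
E2f1, chr2:154569377-154569676, minus strand: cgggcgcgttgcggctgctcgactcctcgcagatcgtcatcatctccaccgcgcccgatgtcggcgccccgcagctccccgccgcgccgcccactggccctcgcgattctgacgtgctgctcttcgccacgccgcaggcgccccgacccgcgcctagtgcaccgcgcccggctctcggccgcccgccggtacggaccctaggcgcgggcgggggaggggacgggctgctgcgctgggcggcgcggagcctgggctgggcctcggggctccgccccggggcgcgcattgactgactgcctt
E2f2, chr4:136172024-136172323, plus strand: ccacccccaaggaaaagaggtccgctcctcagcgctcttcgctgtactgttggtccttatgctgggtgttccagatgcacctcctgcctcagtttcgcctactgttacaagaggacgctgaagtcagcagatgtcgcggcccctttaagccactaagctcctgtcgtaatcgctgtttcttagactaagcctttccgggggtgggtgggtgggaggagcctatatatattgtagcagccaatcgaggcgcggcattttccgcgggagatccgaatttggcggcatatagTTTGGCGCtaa
E2f7, chr10:110745189-110745488, plus strand: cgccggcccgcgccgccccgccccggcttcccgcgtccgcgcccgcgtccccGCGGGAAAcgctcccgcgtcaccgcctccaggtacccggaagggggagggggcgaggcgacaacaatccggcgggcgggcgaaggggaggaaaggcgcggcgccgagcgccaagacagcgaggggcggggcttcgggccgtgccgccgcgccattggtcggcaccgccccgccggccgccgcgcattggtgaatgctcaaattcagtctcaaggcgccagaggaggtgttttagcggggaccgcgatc
E2f8, chr7:48881547-48881846, minus strand: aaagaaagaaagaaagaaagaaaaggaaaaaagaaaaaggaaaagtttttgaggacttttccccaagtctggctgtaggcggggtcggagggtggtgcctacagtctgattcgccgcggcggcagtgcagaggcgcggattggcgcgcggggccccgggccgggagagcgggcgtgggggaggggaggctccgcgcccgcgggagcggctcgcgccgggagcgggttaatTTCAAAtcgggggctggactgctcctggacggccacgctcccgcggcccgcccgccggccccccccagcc

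The E2f2 window held TTTGGCGC, beginning 39 bases after the start. The E2f7 window held GCGGGAAA, the reverse complement of TTTCCCGC, beginning 198 bases before it. The E2f8 window held TTCAAA, the reverse complement of TTTGAA, beginning 20 bases before the start, and no E2F element in these letters. Neither the E2f1 window nor those of Ccne1 and Ccnd3 held any of these words. A second E2f2 window, at chr4:136180532-136180831, held a CHR element and no E2F element. The Myc-binding E-box CACGTG was in none of the 8 windows of these 6 genes. Among all 32851 windows, 2.26% held an E2F element, 19.2% a CHR element and 7.15% the E-box. The E2f1 window surrounds a RefSeq start that lies inside the gene as GENCODE M21 annotates it, and the E2f2 windows lie on either side of the GENCODE start, so sequence at the GENCODE start of these genes was not searched. These are matches of letters, and a window without one says nothing of binding elsewhere in the gene.

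Of the activating factors among the 10, E2f1 overlapped between the groups and E2f2 did not. E2f1 (ENSMUSG00000027490.17, chromosome 2, 154559407 to 154569892, minus strand) had FPKM of 8.28 and 10.6 in control libraries and 8.41 and 9.25 in deficient libraries, both of them inside the range of the controls. Its log2 fold change was -0.08 (95% interval -0.39 to 0.24, adjusted p = 0.837), and it was 0.08 without control 2. E2f2 (ENSMUSG00000018983.9, chromosome 4, 136172394 to 136196057, plus strand) had 3.44 and 3.13 in control libraries and 1.67 and 2.26 in deficient libraries. The groups did not overlap and the deficient mean was 59.9% of the control mean. Limma gave a log2 fold change of -0.54 (SE 0.15, 95% interval -0.90 to -0.18), which did not pass (adjusted p = 0.135), and it did not pass in the authors' deposited table (0.0646). E2f2 is the lowest of the 10, where the pseudocount of 1 understates a change most. The log2 ratio of the FPKM means was -0.74, beside -0.76 for E2f7 and -0.94 for E2f8 on the same measure.

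E2f8 and E2f7, the repressing factors that switch off E2F targets after S phase has begun, both had lower values in each deficient library than in either control. E2f8 had the lowest log2 fold change of the 10 genes with all 4 libraries, while the order of E2f7 and E2f2 turned with the pseudocount (-0.70 and -0.73 at a pseudocount of 0.1). E2f8 (ENSMUSG00000046179.17, chromosome 7, 48866429 to 48881596, minus strand) had FPKM of 5.97 and 8.27 in control libraries and 3.96 and 3.48 in deficient libraries. Each deficient library lay below both controls, and the deficient mean was 52.3% of the control mean (7.12 ± 1.62 and 3.72 ± 0.340, SD, n = 2 per group). The log2 fold change was -0.77 (SE 0.16, 95% interval -1.15 to -0.39) and just missed the threshold in limma (adjusted p = 0.0668). It passed without control 1 (adjusted p = 0.0149, log2 fold change -0.97) but not without control 2 (0.107, log2 fold change -0.56), deficient library 1 (0.233) or deficient library 2 (0.321). The authors' deposited table gave -0.75, with an adjusted p of 0.000431. E2f7 (ENSMUSG00000020185.16, chromosome 10, 110745439 to 110787384, plus strand) had 3.53 and 5.44 in control libraries and 2.68 and 2.63 in deficient libraries. The controls differed from each other more than the first of them did from the deficient libraries. The log2 fold change was -0.56 (SE 0.18, adjusted p = 0.170 in limma, 0.0276 in the authors' deposited table). It depended on the controls, at -0.82 without control 1 (adjusted p = 0.0272) and -0.31 without control 2 (adjusted p = 0.439).

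**Figure D2:**
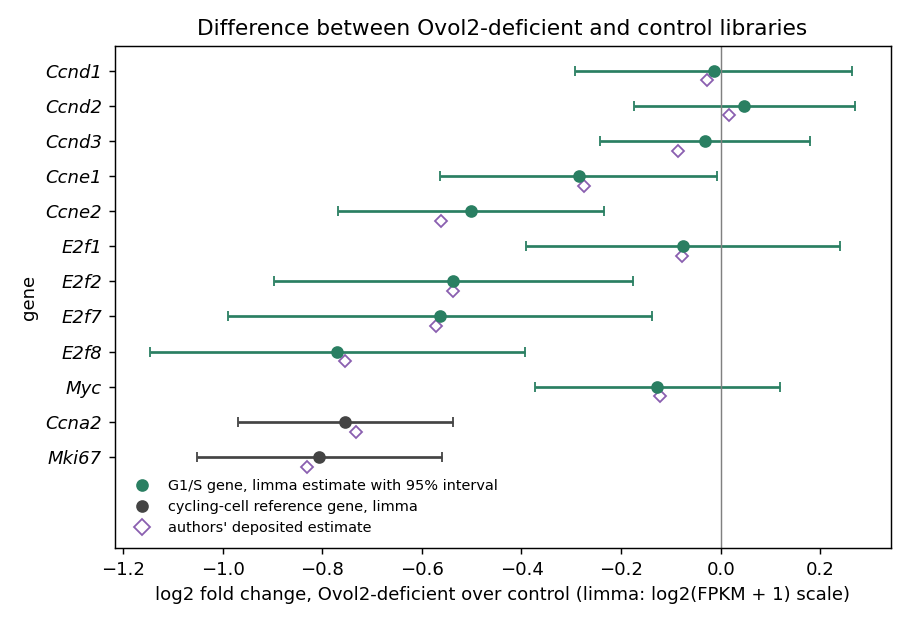
Log2 fold change of Ovol2-deficient over control for the 10 genes (green) and for the cycling-cell genes Ccna2 and Mki67 (grey), as limma estimates with 95% intervals on the log2(FPKM + 1) scale, beside the authors' deposited estimates (open diamonds). The intervals of the D cyclins, E2f1 and Myc span 0, while those of Ccne1, Ccne2, E2f2, E2f7 and E2f8 lie below it before any adjustment for the number of genes.

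The ratio of E2f7 and E2f8 to E2f1 and E2f2 was compared within each library, which removes any scaling of the library. The activator E2f3 and E2f4, a repressor partner of pocket proteins, were not in these sums. The FPKM of E2f7 and E2f8 together was 0.811 and 1.002 times that of E2f1 and E2f2 in the controls, and 0.659 and 0.530 times in deficient libraries. Both deficient libraries lay below both controls (0.907 ± 0.135 and 0.595 ± 0.0911, SD, n = 2 per group, two-sided exact permutation p = 0.333). E2f8 alone was 0.721 and 0.784 times E2f1 in control libraries and 0.471 and 0.376 times in deficient libraries. E2f2 was 29.3% and 22.9% of the summed FPKM of E2f1 and E2f2 in control libraries and 16.5% and 19.7% in deficient libraries. Every one of these ratios was separated between the groups, but none can be tested to a small p with 2 libraries each. They combine the values given above for each gene, so their separation is not separate evidence on E2f2, E2f7 or E2f8.

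Cyclin A2 (Ccna2), expressed from S phase to mitosis, and the proliferation marker Mki67 both fell in these libraries. Ccna2 had FPKM of 49.0 and 52.8 in control libraries and 30.5 and 29.0 in deficient libraries (adjusted p = 0.0353, log2 fold change -0.75), and Mki67 17.7 and 19.2 against 9.61 and 10.6 (-0.81, adjusted p = 0.0353). Both calls were lost without either deficient library. Like every other limma call on a gene named here, they were also lost under quantile normalization, without limma's variance trend and with a looser filter on low values. Relative to Ccna2, E2f8 overlapped between the groups, at 0.122 and 0.157 times its FPKM in control libraries and 0.130 and 0.120 times in deficient libraries. E2f7 overlapped too (0.0721 and 0.103 against 0.0879 and 0.0905), as did E2f2. E2f1 did not. Its ratio to Ccna2 was 0.169 and 0.200 in control libraries and 0.276 and 0.319 in deficient libraries. Ccne1 (0.258 and 0.207 against 0.331 and 0.306) and Ccne2 (0.162 and 0.168 against 0.192 and 0.187) were also higher relative to Ccna2. The two-sided exact permutation p was 0.333 for E2f1, Ccne1 and Ccne2 alike. Since Ccna2 itself fell, any gene that fell less has a higher ratio to it. These higher ratios are therefore not separate evidence on E2f1 or the E cyclins. In bulk RNA, fewer cells of a type and less RNA per cell cannot be told apart.

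**Figure D3:**
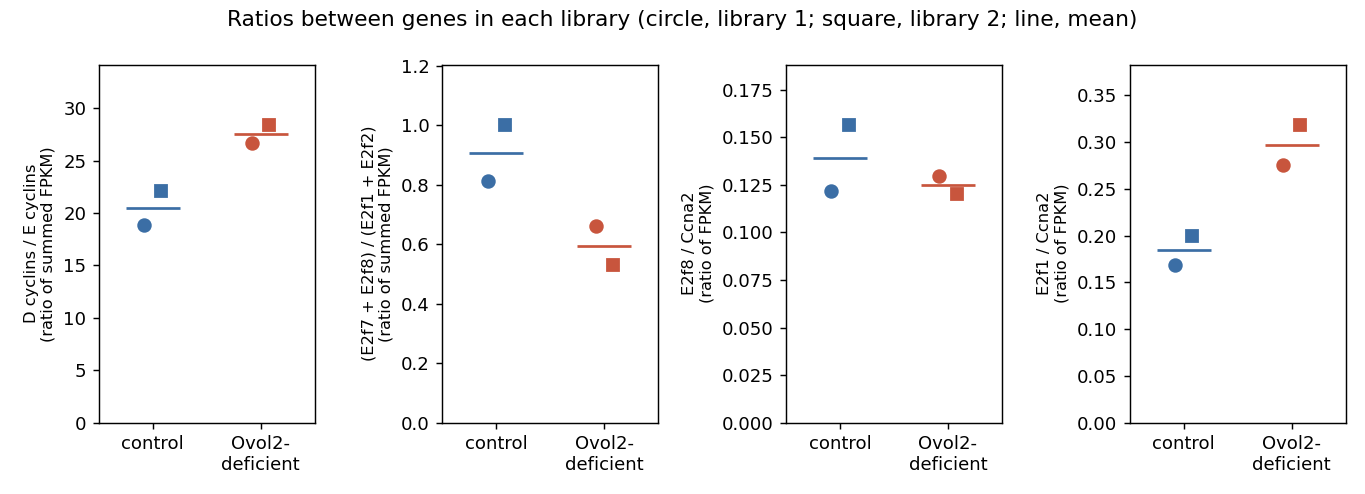
Ratios of FPKM in each library, with circles for library 1, squares for library 2 and a line at each group's mean, and every axis starting at 0. The D to E cyclin ratio and the E2f1 to Ccna2 ratio were higher in both deficient libraries, the ratio of E2f7 and E2f8 to E2f1 and E2f2 was lower in both, and the E2f8 to Ccna2 ratio overlapped.

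Other genes of the circuit were counted from lists chosen with earlier results of these data known. Over all tested genes 0.511% were called lower and 0.837% higher, and at an unadjusted p under 0.05, 7.94% were lower and 9.49% higher. Of 8 measured G1 kinases and their activators 0 passed in limma, with 3 lower at an unadjusted p under 0.05. The phosphatase Cdc25a, which activates Cdk2, averaged 11.0 ± 1.04 and 8.58 ± 0.115 (adjusted p = 0.191, log2 fold change -0.32), and Cdk4, the partner of the D cyclins, averaged 152.9 ± 10.9 and 128.2 ± 1.55 (-0.25, adjusted p = 0.239). Of 7 kinase inhibitors 0 passed, with 2 lower at an unadjusted p under 0.05. These were the Cdk4 and Cdk6 inhibitors Cdkn2c (4.93 ± 0.516 and 3.04 ± 0.184, adjusted p = 0.0874) and Cdkn2d (9.86 ± 0.496 and 7.27 ± 1.42, adjusted p = 0.200). The authors' deposited table called none of these 15 genes.

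Of 8 measured pocket proteins and MuvB subunits, which hold E2F targets in check, 1 fell and 7 did not pass. Rbl1 (p107), a pocket protein that is itself an E2F target, had FPKM of 14.0 and 15.7 in control libraries and 8.83 and 9.22 in deficient libraries (log2 fold change -0.66, SE 0.10, adjusted p = 0.0434). Its call was lost without control 2 (adjusted p = 0.0557) and without Ovol2-deficient library 1 (0.211) or 2 (0.180). Of 11 genes for the turnover of G1 cyclins and Myc, 1 fell, Cks1b, the cofactor of the Skp2 ubiquitin ligase (71.1 ± 2.40 and 48.8 ± 0.863, log2 fold change -0.53, adjusted p = 0.0466). It passed with no library left out and missed the threshold without any 1 of the 4 (adjusted p 0.0507 to 0.193). Of 6 other E2F and DP genes, 0 passed, at an adjusted or an unadjusted p under 0.05. E2f4, a repressor partner of pocket proteins, had means of 35.5 ± 7.35 and 30.6 ± 1.77 (log2 fold change -0.19), and the activator E2f3 had 8.53 ± 0.522 and 7.77 ± 0.179 (-0.12).

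E2F targets were lower in nearly every case. Of 30 measured E2F target genes of S phase entry 3 fell and 27 did not pass. At an unadjusted p under 0.05, 24 were lower (7.94% of all tested genes were). The log2 fold change was below 0 for all 30, with a list median of -0.42, and 29 were lower in each deficient library than in either control, where 24% of all tested genes were. Those that fell were the DNA ligase of replication Lig1 (18.5 ± 0.972 to 10.3 ± 0.464, adjusted p = 0.0353), the DNA methylation cofactor Uhrf1 (24.8 ± 3.57 to 14.2 ± 0.643, adjusted p = 0.0419) and the replicative helicase subunit Mcm6 (39.5 ± 3.82 to 25.7 ± 0.952, adjusted p = 0.0482). Of the 30, 11 were called lower by the authors' deposited table (2.1% of its genes were). Without Ovol2-deficient library 1 or library 2 limma called 0 of them, and without control 1 it called 8. Of the 25 targets with a start-site window, 9 held an E2F element in at least 1 window, and of 12 late genes 1 did. By window this was 9 of 30 windows and 1 of 12, beside 2.26% of all windows. The CHR element was in a window of 4 of those 25 genes and of 9 of those 12. By window this was 4 of 30 windows and 9 of 12, beside 19.2% of all windows.

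Late genes of the cycle had a median of -0.68, and 8 of 15 fell while 7 did not pass. All 15 were lower in each deficient library than in either control (24% of all tested genes were). All 15 were also lower at an unadjusted p under 0.05 (7.94% of all). The authors' deposited table called all 15 lower (2.1% of its genes). Besides Ccna2 and Mki67, those with the smallest p were the topoisomerase Top2a (log2 fold change -0.71, adjusted p = 0.0392) and the mitotic kinase Cdk1 (-0.65, adjusted p = 0.0392). The count was 0 without Ovol2-deficient library 1 or library 2 and 13 without control 1. On the log2(FPKM + 1) scale E2f8 at -0.77 lay within the range of this list, and E2f1 at -0.08 lay above all 15 of its members. That scale understates changes of low genes such as E2f8. As a percent of the control mean, E2f8 (52.3%) lay below the lowest of the 15, Aurkb (54.5%).

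Targets of Myc were mostly a little below 0. The log2 fold change was below 0 for 24 of 27, against 5723 of the 11350 tested genes, with a list median of -0.09 against -0.0014. Myc is known to drive these 27 measured genes of ribosome and nucleotide synthesis. In limma 0 passed, and the authors' deposited table called none. At an unadjusted p under 0.05, 2 were lower (7.94% of all tested genes were). The largest differences were in the RNA polymerase I subunit Polr1b (21.1 ± 3.33 and 17.4 ± 0.815, adjusted p = 0.354, with a log2 difference of -0.26) and in Cdk4, given above. Of 9 measured members of the Myc family and Max network 0 passed, and Mycn was below the filter on low values. At an unadjusted p under 0.05, 1 was higher (9.49% of all tested genes were). That 1 was Mxd1, a Max partner that opposes Myc and is linked to differentiation. It had FPKM of 13.0 and 11.5 in control libraries and 25.3 and 16.7 in deficient libraries (a log2 difference of 0.71, adjusted p = 0.108 in limma, 0.00147 in the authors' deposited table). Mxd3 stood at 1.44 ± 0.310 and 1.06 ± 0.142 (-0.24, adjusted p = 0.529).

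Upstream, 19 genes of growth factor and Wnt signaling were measured, among them ligands, the receptor Egfr and response genes. Of these 17 were tested, of which 2 rose and 15 did not pass, with Spry4 and Lef1 below the filter on low values. Those that rose were the epidermal growth factor receptor ligands Areg (4.31 ± 0.303 to 9.51 ± 1.59, adjusted p = 0.0392) and Ereg (8.60 ± 0.295 to 15.9 ± 1.38, adjusted p = 0.0353), and both calls were lost without either deficient library. The authors' deposited table called these and Fosl1, an AP-1 factor (adjusted p = 0.0133 there, and 0.150 in limma), higher. In the same libraries Ccnd1 and Myc, which growth factor signals are known to raise, did not pass, as given above. Whether signaling itself differed between the groups was not measured. The fibroblast markers, given above, were higher in the same libraries, and their part in these values was not tested.

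**Figure D4:**
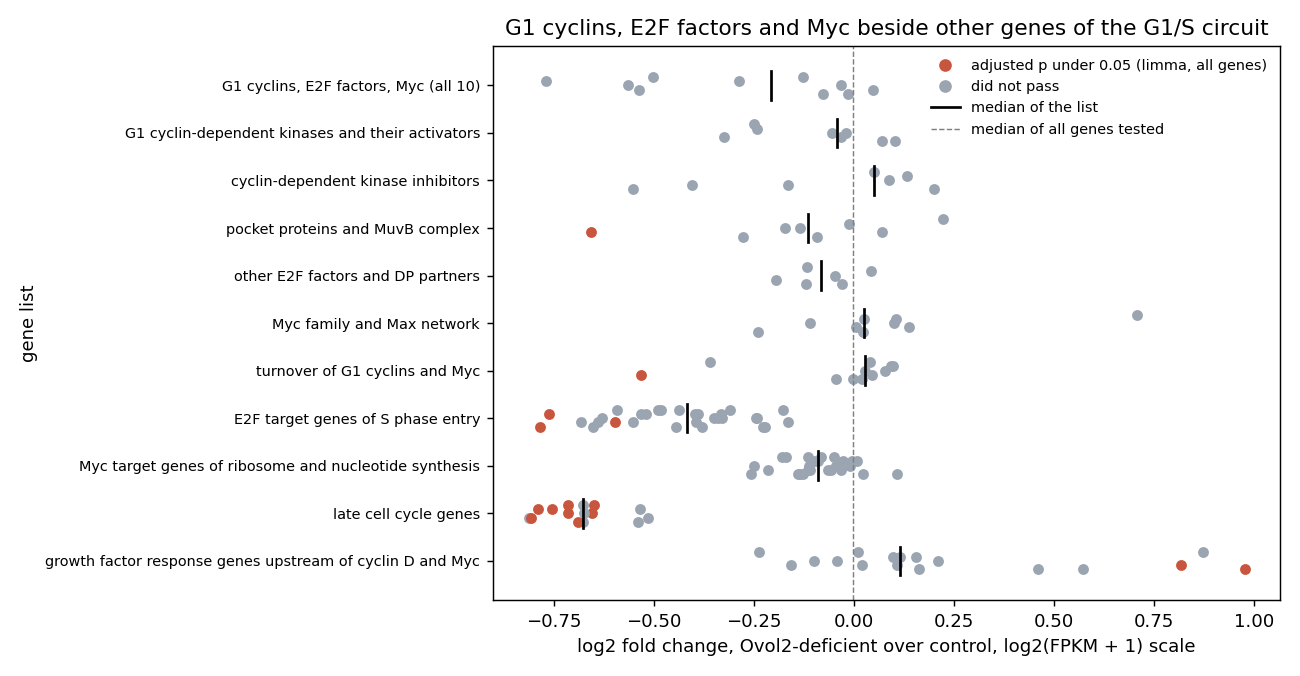
Log2 fold change of each tested gene in the 10 G1/S genes and in each list of the circuit, with genes that passed in limma in red, others in grey, a black bar at each list's median and a dashed line at the median of all tested genes. E2F targets and late genes lie to the left, with medians of -0.42 and -0.68, while the Myc targets, with a median of -0.09, lie nearer to the dashed line.

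The genes whose profile over the 4 libraries lay nearest to 3 of these genes were found by Euclidean distance, after taking from each gene its control mean of log2(FPKM + 1). Nearest to Ccnd1 were Adamtsl5, Dhx37 and Pgs1, at distances of 0.0161, 0.0169 and 0.0212. Nearest to E2f1 were Git1, Smpd4 and Cabin1, at 0.00847, 0.0240 and 0.0276. Nearest to Myc were Msh3, 1110004F10Rik and Gm12669, at 0.0244, 0.0251 and 0.0255. With 4 libraries such likeness is common, and 156, 101 and 358 genes lay within a distance of 0.1 of Ccnd1, E2f1 and Myc.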

How the data were processed

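Keratinocytes were lysed before confluence, per the labels' protocols, with Trizol used for RNA, amplification of full-length cDNA and tagmentation with a Nextera kit. TopHat, HTSeq and mm10 are named in the submitters' processing notes, with no version or role, and none of the sources used here names the annotation. The authors deposited a table of FPKM for 4 libraries (24487 rows after 1 repeated header line was removed). They also deposited a table of mutant against control with, per the file headers, a mean normalized signal, log2 fold changes, a test score (the fold change over its standard error) and p-values with adjusted values. An adjusted p is given there for 11582 of 24062 rows.

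Columns named mutant were assigned to the Ovol2-deficient group, since the sample titles use another code. Their library numbers are those of the table. Date-like symbols (27 rows) were left out and rows sharing a symbol were summed. The test covered the 11350 genes with a mean of 1 FPKM or more, all 10 genes included, on log2(FPKM + 1), a scale that understates changes of low genes, with limma 3.58.1 in R 4.3.3. Group was the only term, with empirical Bayes, a variance trend and Benjamini-Hochberg adjustment at 0.05. Lists are described by counts and medians. The model was tested on simulated data. No pair of libraries shared more than 13 identical values among tested genes. The 10 genes, the lists and the alternatives were chosen with earlier results of these data known. Named genes were the 10, Ovol2, Ccna2, Mki67, up to 4 called genes per list by smallest p or else the 2 largest differences, and the 3 nearest profiles of Ccnd1, E2f1 and Myc. Counting intervals were not computed, since library totals were only estimated. Sequences are RefSeq's.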

Additional observations from a re-analysis of the deposited data

How the results depend on the processing

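The number of genes called over all genes (153) was 8 with a filter at a mean FPKM of 0.1, 3 with no filter, 5 under quantile normalization, 45 after rescaling to TPM, 36 after rescaling by the upper quartile and 6 without the variance trend. It was 10 to 466 with 1 library left out. Of the 10 genes, 0 passed in limma with all libraries, and 0 to 2 did with 1 library left out (E2f7 and E2f8, both without control 1). With the replicate number as a block, 518 genes and 1 of the 10 were called, E2f8 (log2 fold change -0.77, adjusted p = 0.0460). Deviations of same-numbered libraries correlated at 0.220 across genes, but the labels name nothing that the numbers share, so the block is an alternative only. Signs changed for genes near 0: Ccnd1 was 0.00891 after rescaling to TPM and -0.16 to 0.13 with 1 library left out, Ccnd2 -0.0139 to 0.109, Ccnd3 -0.0842 to 0.0215 and E2f1 -0.23 to 0.0816. Ccne1, Ccne2, E2f2, E2f7, E2f8 and Myc stayed below 0 under all 13 alternatives. With 1 library left out, E2f7 was -0.82 to -0.31 and E2f8 -0.97 to -0.56, where the lone library of a group is assumed to vary like the others. Of the E2F targets and of the late genes limma called 1 each after either rescaling (Lig1 and Ccna2), 8 and 13 with the block, and 0 under quantile normalization, a looser or no filter, or without the variance trend. The cause of these shifts was not tested. The mean normalized signal in the authors' deposited table was 196.0 to 407.2 for the E cyclin and E2F genes and 1514 to 15829 for the D cyclins and Myc, with limma SEs of 0.114 to 0.181 and 0.0895 to 0.118.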
